A study of Mus musculus with 14 samples.

Results

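Protocadherins are cadherin-family cell surface proteins, and the peaks described here are those whose nearest gene, as named in the authors' annotation, is a protocadherin (gene symbols that begin with Pcdh). They numbered 1926 of the 517058 peaks in 10 chromatin immunoprecipitation sequencing (ChIP-seq) peak lists. Of these, 400 carried the name of a clustered gene (Pcdha, Pcdhb or Pcdhg) and 1526 the name of a single gene outside the clusters. In all, 69 protocadherin genes were named: 14 alpha, 22 beta and 21 gamma genes, together 57 clustered genes, and 12 single genes. The reference holds 70 protocadherin symbols, of which Pcdha4 and Pcdhgb8 were named in no list, and 1 further name in the lists, Pcdha4-g, is not among its symbols.

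All libraries came from C2C12, a mouse myoblast line that fuses into myotubes in low serum, on day 2 of differentiation. One arm was transfected with 10 nM of a small interfering RNA against Myolinc, a long noncoding RNA (siMyolinc), and the other is labelled control, without a statement of whether it got a control siRNA. Antibodies were against TDP-43 (an RNA- and DNA-binding protein), MyoD and Myogenin (muscle transcription factors that bind E-boxes) and RNA polymerase II phosphorylated at serine 2, the elongating form (Pol II S2P), at 10 µg each. TDP-43 had 3 control libraries and 1 siMyolinc library, and each of the other antibodies had 1 of each. The labels do not say that the 3 TDP-43 controls were separate cultures, so p-values here cover only sample-to-sample spread that may be technical. The Myolinc transcript is not measured by ChIP-seq, and the knockdown was not checked here.

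In the clustered loci, a tandem array of large first exons encodes the extracellular and transmembrane parts of the proteins. Each alpha and gamma first exon has its own promoter and is spliced to a shared set of constant exons, while each beta gene is a single exon. Neurons express different combinations of these isoforms, which bind like to like at cell contacts. The single genes encode separate adhesion proteins with roles in the nervous system and other tissues.

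Most lists differed in length and depth, and both move with several of the results. The lists held 8162 to 115000 peaks in control cells and 20453 to 116064 after siMyolinc. If scores are scaled to 10000000 tags, the 3 control TDP-43 libraries and the control Pol II S2P library rest on 962388 to 1455047 sequence tags, and the other 6 on 3040130 to 3774955. The same 4 shallow lists had the most exon peaks among all their peaks, 18.8% to 25.6% against 1.84% to 6.93% in the other 6. The siMyolinc MyoD and siMyolinc Myogenin lists had a median peak width of 75 bp, against 217 to 249 bp in the other 8. Of 10 skeletal muscle marker genes, 2 to 8 had a peak in any class per list, and of 10 neuron markers 2 to 10. A peak does not report expression, so these markers do not check the cell type. The part of depth in the results below was not tested, and values at equal list length are given where they differ.

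Clustered protocadherins had more TDP-43 peaks per 10000 in each control list than after siMyolinc. The 3 control lists held 73, 47 and 37 clustered peaks, which is 24.6, 44.5 and 45.3 per 10000 peaks of the list (38.1 ± 11.7, SD, n = 3). The siMyolinc list held 20, or 8.01 per 10000, with a 95% Wilson interval of 5.19 to 12.4. The siMyolinc list was below all 3 controls, and the control mean was 4.76 times its value. An exact two-sided permutation test over the 4 libraries gave p = 0.25, the smallest p that 3 against 1 allows, and 0.375 after Benjamini-Hochberg adjustment over 6 tests. Each family was lower after siMyolinc. Alpha peaks went from 16.4 ± 4.91 to 2.00 per 10000, beta peaks from 12.8 ± 5.55 to 3.20 and gamma peaks from 8.89 ± 1.30 to 2.80 (SD, n = 3 controls, 1 siMyolinc list).

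**Figure D1:**
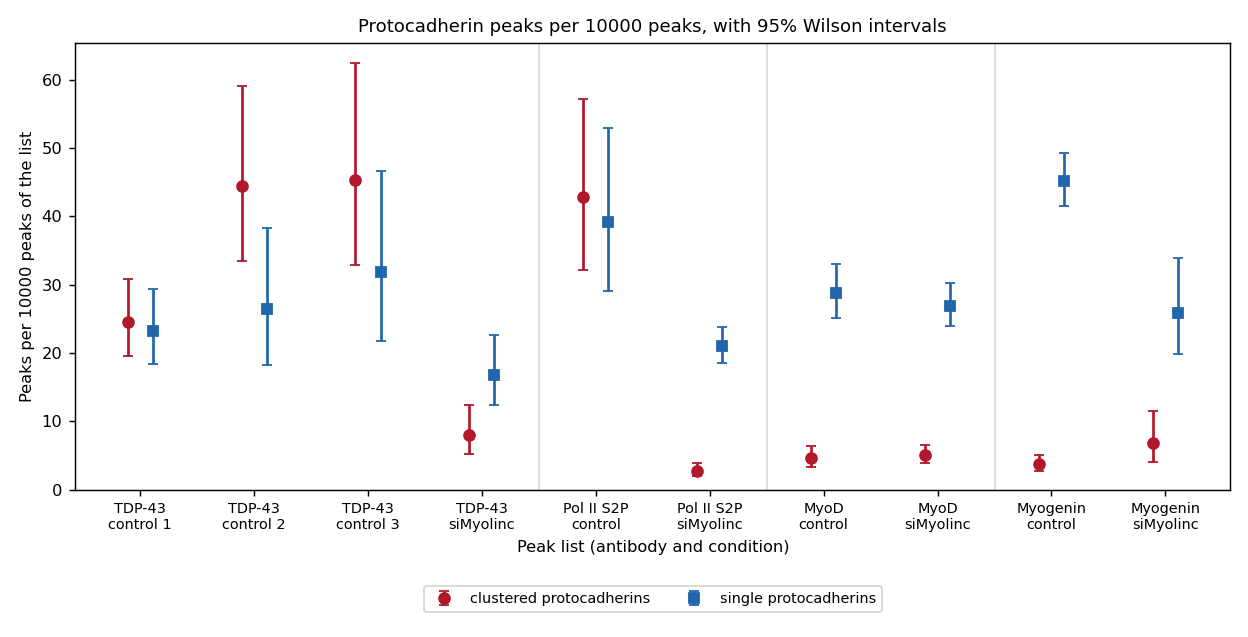
Clustered (red circles) and single (blue squares) protocadherin peaks per 10000 peaks in each of the 10 lists, with 95% Wilson intervals that cover counting error only. Clustered peaks were above 24 per 10000 in the 3 control TDP-43 lists and the control Pol II S2P list and at or below 8.01 in the other 6 lists.

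The share of exon peaks among all peaks of a list was also lower after siMyolinc, 6.93% against 22.8% ± 3.59 (SD, n = 3). Counted against the exon peaks of the same list alone, a denominator chosen after seeing the data, clustered exon peaks were 106, 165 and 158 per 10000 in the TDP-43 controls (143 ± 32.2, SD, n = 3). The siMyolinc list had 98.3 per 10000 exon peaks, with a Wilson interval of 61.5 to 157 that spans the value of control replicate 1. Its distance from the controls was therefore smaller on this scale, and the exact permutation p stayed at 0.25.

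Elongating polymerase also had fewer clustered peaks per 10000 after siMyolinc, in 1 library per condition. The control Pol II S2P list had 46 clustered peaks, 42.9 per 10000 (Wilson interval 32.2 to 57.2), and the siMyolinc list had 32, or 2.76 (1.95 to 3.89). Per 10000 exon peaks the values were 170 (125 to 232) and 36.7 (22.6 to 59.5). On both scales the intervals did not overlap, but with single libraries the difference has no replicate check. MyoD gave 33 clustered peaks in control and 55 after siMyolinc, 4.59 and 5.02 per 10000. Myogenin gave 43 and 14, or 3.74 and 6.84 per 10000. The MyoD and Myogenin lists, control and siMyolinc, were thus all below the 4 lists of control Pol II S2P and control TDP-43.

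Nearly all TDP-43 peaks at the clustered genes were annotated as exon. The exon share of clustered peaks was 80.8%, 89.4% and 89.2% in the controls (86.5% ± 4.88, SD, n = 3) and 85%, or 17 of 20 peaks, in the siMyolinc list (exact permutation p = 1). The siMyolinc value lay inside the control range, so the list with fewer clustered peaks per 10000 had no lower exon share among them than replicate 1. In the control Pol II S2P list 84.8% of clustered peaks (39 of 46; Wilson interval 71.8% to 92.4%) were exon peaks, and after siMyolinc 50.0% (16 of 32; 33.6% to 66.4%). For MyoD the share was 27.3% (9 of 33) in control and 50.9% (28 of 55) after siMyolinc. For Myogenin it was 18.6% (8 of 43) and 64.3% (9 of 14). The difference, siMyolinc minus control, was 23.6 percentage points for MyoD (interval 2.38 to 41.3) and 45.7 for Myogenin (16.6 to 67.0). For Pol II S2P it was -34.8 (-52.8 to -13.9). These intervals hold counting error only, with no replicate. The exon share of all peaks moved the same way in each pair of lists. It was 1.85% in control and 3.68% after siMyolinc for MyoD, and 1.84% and 6.24% for Myogenin. For Pol II S2P it was 21.4% and 3.76%. The part of this list-wide shift was not tested.

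Clustered peaks fell in exons more often than single-gene peaks within every list. The difference in exon share, clustered minus single, was positive in 10 of 10 lists, with a mean of 56.5 percentage points and a range of 18.0 (control Myogenin) to 77.9 (siMyolinc TDP-43). An exact two-sided sign-flip permutation test over the 10 lists gave p = 0.00195, the smallest it allows, and 0.0117 after adjustment over 6 tests. The 10 lists are 4 antibodies in 2 conditions and not replicates of a group. Beta genes have no intron, and 50.0% to 83.3% of single-gene peaks per list lay over 100 kb from the named start. The test cannot tell such gene structure and nearest-gene naming from a difference in binding, and their part was not tested. With only peaks within 10 kb of the named start, the mean was 36.2 points, positive in 10 of 10. When each list was cut to its best 8162 peaks, the length of the shortest, the control MyoD and control Myogenin lists kept 1 and 4 clustered peaks with none in an exon, and 8 of 10 lists remained positive.

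**Figure D2:**
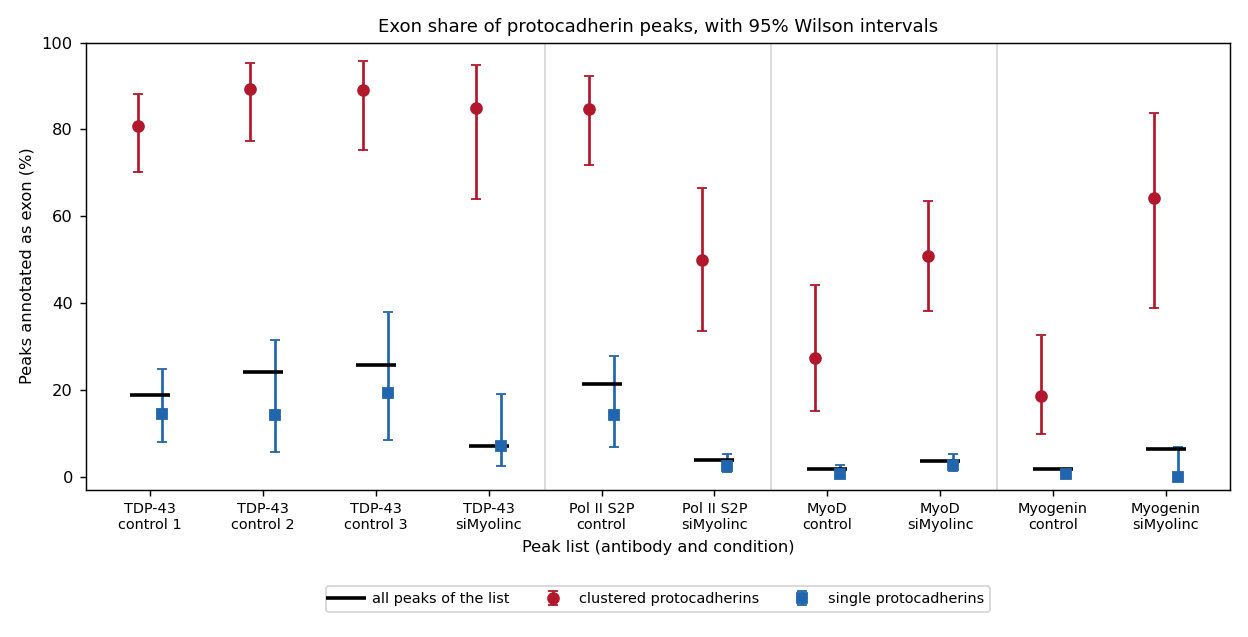
Percent of peaks annotated as exon among clustered protocadherin peaks (red circles), single protocadherin peaks (blue squares) and all peaks of the list (black bars), with 95% Wilson intervals for the first pair. In each list the clustered share, 18.6% to 89.4%, is above the single-gene share, 0% to 19.2%, and above that of all peaks, 1.84% to 25.6%.

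All 260 clustered exon peaks lay in the first exon of their annotated transcript. That is the variable exon for the alpha genes (103 peaks) and gamma genes (71 peaks), whose transcripts have 4 exons, and the only exon for the beta genes (86 peaks). None was in a constant exon. For 253 of the 260 the annotated transcript belonged to the gene named for the peak. The first exons are close paralogs, and how reads that match several copies were placed is not given in the sources used here. Peaks of neighbouring family members are therefore uncertain as to which copy the reads came from.

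Beta exon peaks of the control TDP-43 and control Pol II S2P lists sat in a narrow stretch of the gene. In the 3 control TDP-43 lists 43 beta exon peaks had their centre 1549 to 2082 bp from the start of the named gene, with a median of 1882 bp and quartiles of 1794 and 1990 bp. None lay in the first 1500 bp. The 13 beta exon peaks of the control Pol II S2P list fell in the same stretch, between 1659 and 2038 bp. In the other 6 lists 30 beta exon peaks were spread from 114 to 2460 bp, with 20 of them between 1500 and 2500 bp. Among these the siMyolinc TDP-43 list had 7 beta exon peaks, from 1289 to 2078 bp.

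Alpha and gamma exon peaks took other places. Of 56 alpha exon peaks in the control TDP-43 lists, 16 lay within the first 500 bp, none between 500 and 1000 bp, and the others between 1000 and 2500 bp, up to 2273 bp. The control Pol II S2P list had 2 alpha exon peaks in the first 500 bp, none in the next 500 bp and 14 farther on. Gamma exon peaks in the control TDP-43 lists lay mostly near the start, with a median of 362 bp and 20 of 35 within the first 500 bp. In the 6 lists other than control TDP-43 and control Pol II S2P the median was 1314 bp, with 8 of 26 in that stretch. A single gamma peak was listed at -1973 bp from the start of its named gene, Pcdhga11, and its annotated exon is that of the neighbouring Pcdhgb7.

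**Figure D3:**
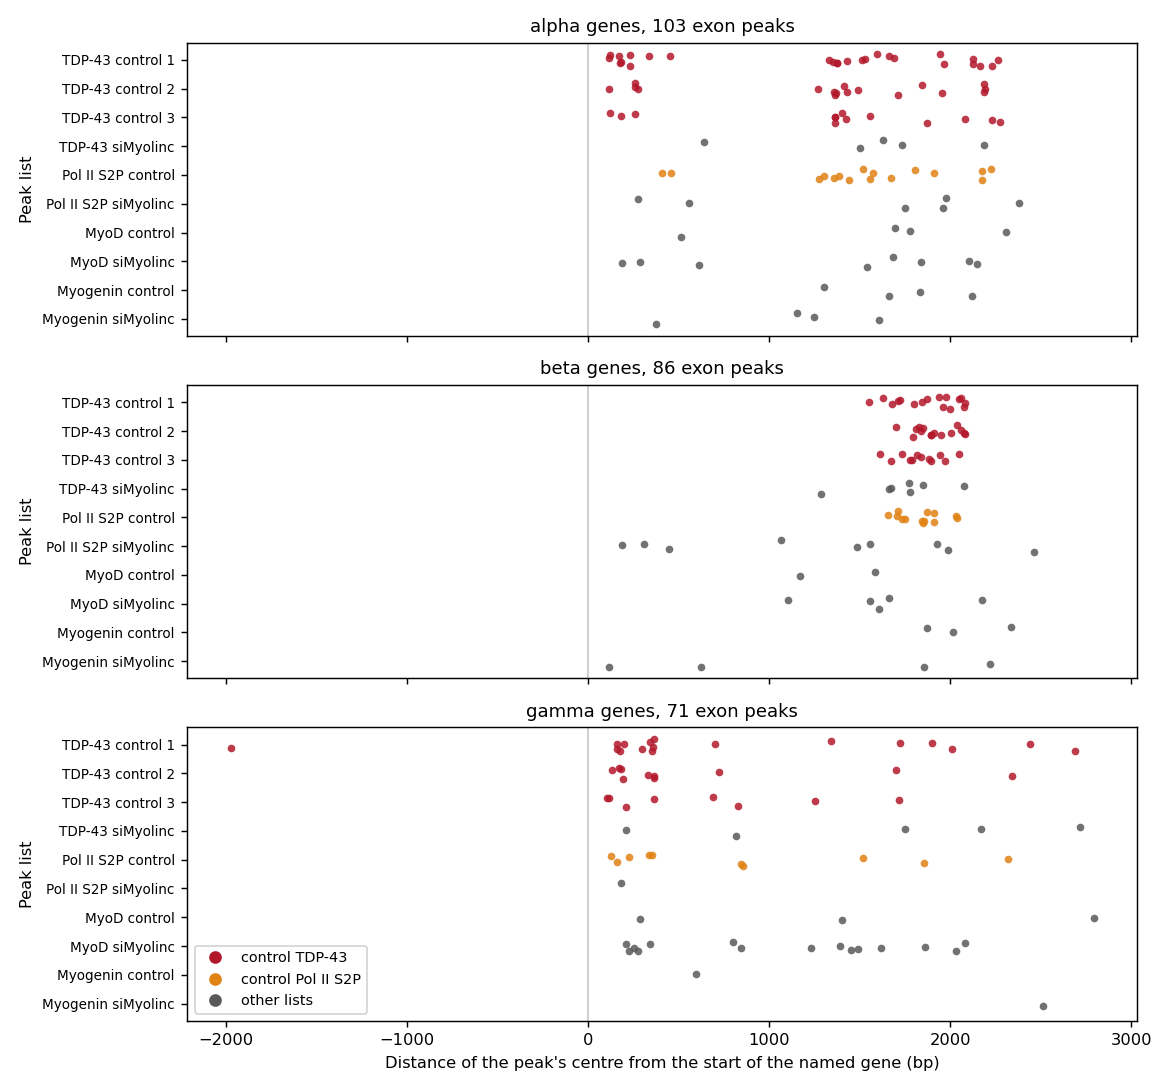
Distance in bp from the start of the named gene to the centre of each clustered exon peak, by family (panels) and list (rows), with control TDP-43 in red, control Pol II S2P in orange and the other lists in grey. Vertical scatter within a row only separates the points. The 43 beta peaks in control TDP-43 lie between 1549 and 2082 bp, and no alpha peak of the same lists lies between 500 and 1000 bp.

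Because beta genes are short and intronless, peaks were also counted per length of gene body. The 22 beta genes cover 75637 bp on the reference. TDP-43 peaks inside them numbered 21.2, 19.8 and 15.9 per 100 kb in the controls and 9.25 per 100 kb in the siMyolinc list. The same lists had 1.75, 0.646, 0.512 and 1.28 peaks per 100 kb over all protein-coding gene bodies. Beta gene bodies were thus 12.1, 30.7 and 31.0 times as densely covered as coding genes in control and 7.22 times after siMyolinc. Control Pol II S2P had a ratio of 27.9 and siMyolinc Pol II S2P 2.58. Beta peak density itself was 17.2 and 14.5 per 100 kb in these 2 lists, while density over all coding genes was 0.616 and 5.63. For MyoD the ratio was 0.828 in control and 1.5 after siMyolinc, and for Myogenin 1.35 and 5.20. Coding gene bodies include introns, so these ratios do not hold exon content equal. The control TDP-43 and control Pol II S2P lists, with the highest ratios, also had the most exon peaks among all their peaks. The part of exon content was not tested.

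Counted by gene, 46 of 57 clustered genes had a TDP-43 exon peak in at least 1 control list, where 21.8% of all 22838 genes named in the lists did. The members were 13 of 14 alpha, 20 of 22 beta and 13 of 21 gamma genes. In at least 2 control lists it was 35 of 57, against 9.55% of all genes. In all 3 it was 23 of 57, against 3.69%. Those 23 comprised 10 alpha genes (Pcdha1, Pcdha2, Pcdha3, Pcdha5, Pcdha7, Pcdha8, Pcdha9, Pcdha10, Pcdha12 and Pcdhac2), 9 beta genes (Pcdhb2, Pcdhb3, Pcdhb4, Pcdhb7, Pcdhb11, Pcdhb14, Pcdhb17, Pcdhb18 and Pcdhb22) and 4 gamma genes (Pcdhga3, Pcdhga6, Pcdhga12 and Pcdhgb2). The siMyolinc TDP-43 list had an exon peak at 17 of 57 clustered genes, against 6.97% of all genes. An exon peak in at least 2 controls with none in siMyolinc TDP-43 was found at 26 of 57, against 6.93%. Members exceeded the background on each of these counts. Among genes with exon peaks in at least 2 controls, however, 26 of 35 clustered genes (74.3%) and 1582 of all 2181 (72.5%) had none in siMyolinc TDP-43, so the share without one was near the background.

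For the other antibodies the clustered genes were above the share of all genes in each of the 6 lists, by more in control Pol II S2P than in the rest. In the control Pol II S2P list 34 of 57 clustered genes had an exon peak, against 8.5% of all genes, and in the siMyolinc list 14 of 57, against 15.8%. MyoD marked exons of 9 of 57 in control, against 5.55%, and 24 of 57 after siMyolinc, against 14.4%. Myogenin marked 8 of 57, against 8.42%, and 9 of 57 after siMyolinc, against 5.12%. Other members of the cadherin superfamily, from a list of 48 genes of which 46 were named in the lists, had a TDP-43 exon peak in at least 1 control list for 14 of 46 and in all 3 for 4 of 46 (Cdh15, Cdh20, Celsr1 and Celsr2). Genes known to control the clusters through chromatin, such as cohesin and DNA methylation genes, did so for 3 and 2 of 15 (Dnmt3a and Wiz in all 3 lists). Cytoplasmic partners of protocadherins did so for 1 and 0 of 11. The shares of all genes were 21.8% and 3.69%, so neither of these last lists was above the background at 1 list.

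**Figure D4:**
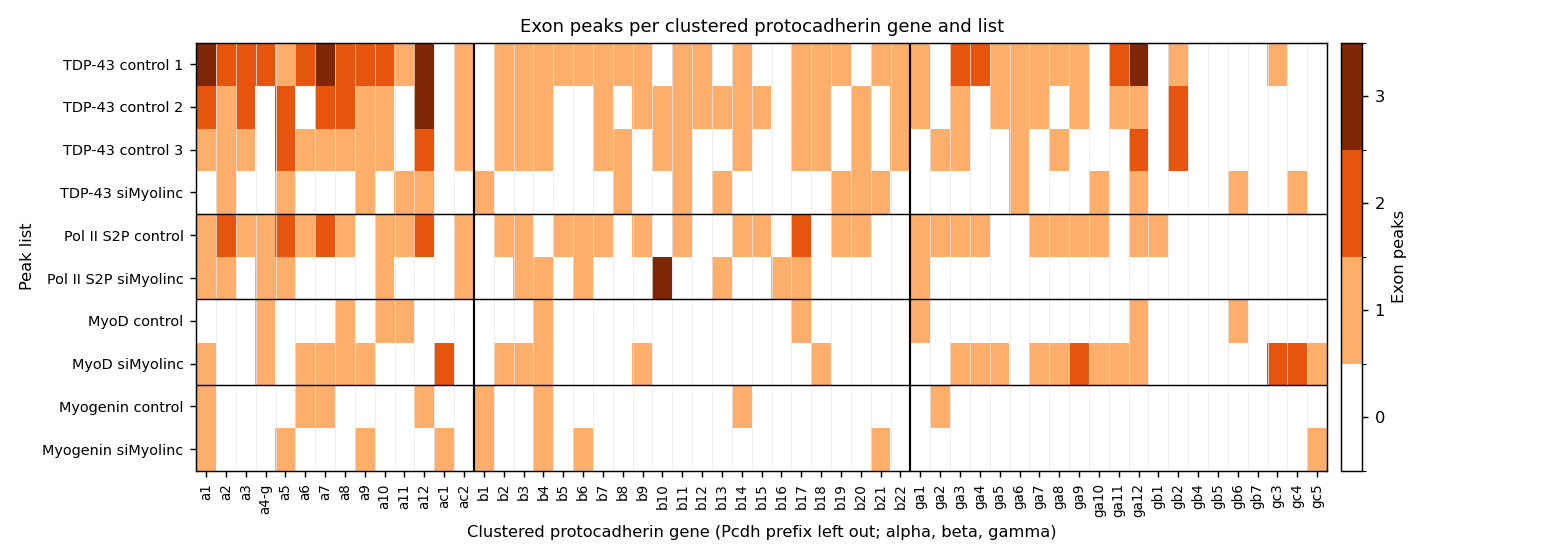
Number of exon peaks (colour, 0 to 3) at each of the 57 clustered genes (columns, alpha, beta and gamma divided by black lines) in each of the 10 lists (rows). Filled cells are densest in the 4 control rows of TDP-43 and of Pol II S2P, where 29 to 41 of the 57 genes have an exon peak, against 8 to 24 in the other 6 rows.

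At the alpha genes 11 positions met all 3 control TDP-43 lists. The first exon of Pcdha5 held the position met by most lists, 6 of 10 (chr18:36962004-36962421, mm10), about 1776 bp from the start. It had 13, 11 and 6 tags in the TDP-43 controls, 6 in siMyolinc TDP-43, and 8 and 18 tags in the control and siMyolinc Pol II S2P lists. No MyoD or Myogenin list had a peak there. A second Pcdha5 position nearer the start held the best clustered peak of control TDP-43 replicate 2 (17 tags, rank 44 of 10571) and of replicate 3 (13 tags, rank 98 of 8162). Replicate 1 and siMyolinc TDP-43 had no peak at it, while control Pol II S2P had 8 tags and siMyolinc Myogenin 142. The 142 tags ranked 9704 of 20453 in the siMyolinc Myogenin list, where the median was 137 tags per peak. With so few tags, neighbouring counts are within counting error: the exact Poisson interval of 17 tags is 9.90 to 27.2.

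Pcdha12 had the most alpha exon peaks, 12, with 2 recurrent places in its first exon. The nearer, 1358 bp from the start, had 23, 16 and 7 tags in the TDP-43 controls and 11 in control Pol II S2P. The farther, at 1954 bp, had 9, 7, 7 and 9 tags in the same 4 lists and 20 in control Myogenin. Neither had a siMyolinc peak, although another Pcdha12 exon peak of 10 tags was listed in siMyolinc TDP-43. Control Pol II S2P also had a Pcdha12 promoter peak of 17 tags, rank 38 of 10716, the best clustered peak of that list. At Pcdha7 a position 1430 bp from the start had 13, 13 and 7 tags in the TDP-43 controls, 8 in control Pol II S2P and 12 in siMyolinc MyoD.

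Pcdha2 had a siMyolinc TDP-43 peak and Pcdha1 had none. A Pcdha2 position held 12, 6 and 7 tags in the TDP-43 controls, 8 in control Pol II S2P and 15 in siMyolinc TDP-43, where it was the best clustered peak (rank 112 of 24964; Poisson interval 8.4 to 24.7). Pcdha1, with peaks in 8 lists, had a position at 2184 bp with 12, 15 and 6 tags in the TDP-43 controls and none in siMyolinc TDP-43, and 10 and 31 tags in siMyolinc Pol II S2P and siMyolinc MyoD. A tag is a smaller share of a deeper library, so tags are not compared between lists here. Pcdha3, Pcdha6, Pcdha8, Pcdha9 and Pcdha10 each had an exon peak in 2 or 3 control TDP-43 lists, with best peaks of 6 to 23 tags. Of these only Pcdha9 also had one in siMyolinc TDP-43, with 11 tags.

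The C-type genes Pcdhac1 and Pcdhac2, which close the alpha array, were the ones with promoter peaks in several TDP-43 controls. Pcdhac1 had a promoter-TSS peak in all 3, of 9, 6 and 7 tags, centred at -126, -109 and -112 bp from its start, and no other peak in those lists. No other list had a Pcdhac1 promoter peak, though siMyolinc MyoD and siMyolinc Myogenin had exon peaks at 285 to 615 bp. Pcdhac2 had promoter peaks of 6 tags each in replicates 1 and 2 and an exon peak in all 3 (11, 12 and 12 tags), in control Pol II S2P (7 tags) and in siMyolinc Pol II S2P (19 tags). It had no peak in the siMyolinc TDP-43 list.

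Promoter peaks were otherwise few. The authors' annotation called 7, 3 and 1 clustered peaks promoter-TSS in the TDP-43 controls (9.59%, 6.38% and 2.70%, 6.22% ± 3.45, SD, n = 3), near the 4.37% to 5.22% of all peaks. The siMyolinc list had 0 of 20, which allows a share of up to 15.0% (exact permutation p = 0.5). The 7 of replicate 1 included 4 gamma genes, Pcdhga2, Pcdhgb2, Pcdhgb4 and Pcdhgb7, and Pcdha5. Replicate 2 had a promoter peak at Pcdha6. No beta gene had a promoter peak in any TDP-43 list. By gene, 8 of 57 clustered genes had one in at least 1 control list, against 7.58% of all genes. If promoter is taken as 1000 bp to either side of the start, the control mean was 31.5% and the siMyolinc value 15.0%, since many gamma and alpha exon peaks lie that near.

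Among the beta genes, single positions about 1.9 kb from the start recurred gene by gene. Pcdhb11 had 23, 9 and 9 tags in the TDP-43 controls, 10 in siMyolinc TDP-43 and 5 in control Pol II S2P, at 1847 bp, and was the beta gene whose position met all 3 controls and the siMyolinc TDP-43 list. Pcdhb14 (10, 8 and 12 tags, 1872 bp), Pcdhb2 (10, 9 and 5 tags, 1878 bp) and Pcdhb7 (9, 7 and 6 tags, 1855 bp) had peaks in the 3 controls and in control Pol II S2P and none in siMyolinc TDP-43. At Pcdhb3 a position at 1717 bp had 10 and 11 tags in replicates 2 and 3, 8 in control Pol II S2P and 28 in siMyolinc MyoD. Pcdhb17 at 1622 bp had 9 tags in replicate 3 and 6, 15 and 9 tags in control Pol II S2P, siMyolinc Pol II S2P and control MyoD. The other beta genes with exon peaks in 2 or 3 control TDP-43 lists were Pcdhb4, Pcdhb8, Pcdhb9, Pcdhb10, Pcdhb12, Pcdhb18, Pcdhb20 and Pcdhb22. The best clustered peak of control replicate 1 was in the Pcdhb8 exon, with 24 tags at 1549 bp (rank 126 of 29703).

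Pcdhb1, the first beta gene, departed from this pattern. It had a peak in all 10 lists, but no exon peak in the 3 TDP-43 controls. There its peak lay in an intron of another transcript, Gm37013, at -36556 to -36427 bp from the Pcdhb1 start. That place is in a repeat, and the peak had 7 tags in each control. The siMyolinc MyoD list had a peak of 26 tags at the same place, and siMyolinc Myogenin its best clustered peak (282 tags, rank 347 of 20453) close by, at -36756 bp. The siMyolinc TDP-43 list had a Pcdhb1 exon peak of 11 tags at 1289 bp. Pcdhb22, the last beta gene, had exon peaks of 14, 8 and 9 tags in the TDP-43 controls. Its peaks in the MyoD and Myogenin lists lay 5749 to 54759 bp past its start, among them the best clustered peak of siMyolinc MyoD (58 tags). Pcdhb4 had exon peaks in 8 lists, 17, 7 and 8 tags in the TDP-43 controls at 1711 to 2057 bp. The best clustered peaks of control MyoD (Pcdhb9, 16 tags, intron) and control Myogenin (Pcdhb5, 30 tags, promoter) were also named for beta genes.

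Gamma genes had fewer peaks and these lay near the start. Pcdhga6 had 13, 13 and 11 tags in the TDP-43 controls and 7 in siMyolinc TDP-43 at 197 bp, and was in no Pol II S2P list. Pcdhga3 had 10, 11 and 8 tags at 342 bp and 5 in control Pol II S2P. Pcdhga1 had 14 and 5 tags in replicates 1 and 2 at 198 bp, and 6, 22 and 8 tags in control Pol II S2P, siMyolinc Pol II S2P and control MyoD. Pcdhga12, with a peak in 7 lists, had an exon peak in all 3 controls at 688 to 725 bp (9, 7 and 6 tags) and in siMyolinc TDP-43 at 2714 bp (6 tags). Pcdhgb2 had 2 places in each control, 1 at 100 to 135 bp (23, 6 and 6 tags; called promoter in replicate 1) and 1 at 1701 to 1725 bp (9, 14 and 12 tags). It had no peak in any other list. Pcdhga5, Pcdhga7, Pcdhga8, Pcdhga9 and Pcdhga11 had exon peaks in 2 TDP-43 controls and none in siMyolinc TDP-43, and each had one in siMyolinc MyoD. Of the C-type gamma genes, Pcdhgc3 had 1 control TDP-43 exon peak and Pcdhgc4 and Pcdhgc5 had none.

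A larger share of clustered peaks than of all peaks met a peak of another control TDP-43 list, a difference that was not tested. Peaks joined at 1 bp of overlap gave 246 clustered positions, of which 89 met at least 1 control TDP-43 list, 45 at least 2 and 23 all 3. Replicates 1 and 2 shared 33 clustered peaks, 45.2% of the first and 70.2% of the second, where all peaks gave 13.4% and 37.6%. Replicates 1 and 3 shared 29 (39.7% and 78.4%, against 10.9% and 39.8% for all peaks) and replicates 2 and 3 shared 27 (57.4% and 73.0%, against 27.5% and 35.7%). The siMyolinc TDP-43 list shared 7, 4 and 4 of its 20 clustered peaks with replicates 1 to 3, or 35.0%, 20.0% and 20.0%, where 6.99%, 3% and 2.41% of all its peaks were shared. Control Pol II S2P shared 28, 22 and 18 of its 46 clustered peaks with the same replicates, or 60.9%, 47.8% and 39.1%, against 33.3%, 19.4% and 16.4% of all its peaks. Of the 23 positions in all 3 controls, 11 met control Pol II S2P and 4 met siMyolinc TDP-43. The same shares over the positions of all genes were not computed. No clustered peak was shared by control and siMyolinc MyoD (0 of 33, which allows up to 9.09%) or by control and siMyolinc Myogenin (0 of 43, up to 6.98%), and of all peaks in those control lists 1.78% and 0.355% were. When overlap had to cover 50% of the shorter peak, 13 clustered peaks of replicate 1 met both other controls, against 22 at 1 bp.

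Single protocadherin genes had a different kind of peak. Per 10000 peaks they had 23.2, 26.5 and 31.9 in the TDP-43 controls (27.2 ± 4.36, SD, n = 3) and 16.8 after siMyolinc (exact permutation p = 0.25, adjusted 0.375). The share in exons was 14.5%, 14.3% and 19.2% (16.0% ± 2.80, SD, n = 3) and 7.14% after siMyolinc (exact permutation p = 0.25). The siMyolinc value was below all 3 controls on both measures. The exon share of all peaks was lower too, 22.8% ± 3.59 (SD, n = 3) in control and 6.93% after siMyolinc. Per 10000 exon peaks of the list, single-gene exon peaks were 17.9, 15.7 and 23.9 in the controls. The siMyolinc value on that scale, 17.4, lay inside the control range. Both single-gene differences above moved with the peaks used. With only peaks within 10 kb of the start the rates were 5.08 (control mean) and 2.00, and the exon share turned round, at 47.2% in the controls and 60.0% after siMyolinc, with 1 of 3 controls above. Without repeat peaks the exon shares were 34.5% and 15.0%, and with lists of equal length 23.6% and 14.3%, with 2 of 3 controls above. Control and siMyolinc values per 10000 were 28.8 and 26.9 for MyoD, 45.2 and 25.9 for Myogenin and 39.2 and 21.0 for Pol II S2P. Between 50.0% and 83.3% of single-gene peaks lay over 100 kb from the named start, and 37.7% to 61.1% overlapped an annotated repeat. The name of a single gene on such a peak records only which start was nearest.

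Several single genes, Pcdh1, Pcdh17 and Pcdh19, had a peak in all 10 lists, and most of those peaks were distant. Pcdh17, known from neuronal circuits, had 325 peaks, 304 of them intergenic, and Pcdh19, an X-linked gene mutated in an epilepsy, had 294 peaks of which 3 were exon peaks. Pcdh9 had the most peaks, 326, with 1 in an exon. Pcdh17 nonetheless held the single position met by most lists, 5, in its first exon, 4342 bp from the start, with 11 tags in control TDP-43 replicate 1, 8 in siMyolinc TDP-43, 8 and 22 in control and siMyolinc Pol II S2P and 21 in control Myogenin. A 5′ UTR position of Pcdh17 met 4 lists with 7 to 28 tags. Intergenic positions in 4 lists were at -1968727 bp from the Pcdh17 start and at 897099 and 1838777 bp from the Pcdh19 start.

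Of the 12 single genes, 8 had a promoter peak in at least 1 list, and the share of all genes under this rule was not computed. Pcdh7 is among them only through a peak annotated to the transcript of another gene, 4932441J04Rik. RefSeq promoter windows on GRCm38.p6 (mm10) were at hand for 9 single genes, and the 3 that met a peak in the 250 bases before the start are shown, 5′ to 3′ on the strand of the gene. Capitals mark the bases covered by the peaks named for each. For Pcdh17 (chr14:84443313-84443562, plus strand) they are the 112 bases shared by the TDP-43 peaks of control replicate 1 (8 tags, covering 234 bases of the window) and control replicate 3 (6 tags). For Pcdh9 (chr14:93890680-93890929, minus strand) they are the 144 bases under the peak of control TDP-43 replicate 1 (10 tags), of which the control Pol II S2P peak (4 tags) covers 81. For Pcdh8 (chr14:79771313-79771562, minus strand) they are the 56 bases under a siMyolinc Myogenin peak (36 tags). That peak is a weak one of its list, rank 18524 of 20453, where the median was 137 tags per peak.
Pcdh17: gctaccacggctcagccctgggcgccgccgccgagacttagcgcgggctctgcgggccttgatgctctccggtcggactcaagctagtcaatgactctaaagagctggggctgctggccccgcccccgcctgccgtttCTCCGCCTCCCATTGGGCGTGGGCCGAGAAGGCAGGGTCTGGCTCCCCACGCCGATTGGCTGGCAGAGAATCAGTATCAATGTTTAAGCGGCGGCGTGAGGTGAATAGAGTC
Pcdh9: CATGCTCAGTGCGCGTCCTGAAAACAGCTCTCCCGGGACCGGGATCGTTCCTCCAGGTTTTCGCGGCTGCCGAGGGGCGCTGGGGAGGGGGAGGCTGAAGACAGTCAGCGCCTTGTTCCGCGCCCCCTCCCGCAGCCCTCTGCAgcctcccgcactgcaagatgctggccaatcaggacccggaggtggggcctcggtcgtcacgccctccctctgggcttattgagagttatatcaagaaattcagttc
Pcdh8: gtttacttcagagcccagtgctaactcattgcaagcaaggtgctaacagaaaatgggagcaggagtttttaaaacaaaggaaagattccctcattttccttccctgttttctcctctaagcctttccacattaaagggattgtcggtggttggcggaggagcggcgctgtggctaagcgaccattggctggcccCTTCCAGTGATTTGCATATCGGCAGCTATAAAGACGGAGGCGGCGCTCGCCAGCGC

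A pair of motifs was searched in these windows on both strands, the E-box CANNTG and the repeat TGTGTG, which can overlap each other. None of the 3 windows held either. Of the 9 single-gene windows in the reference table, 2 held CANNTG (Pcdh15 and Pcdh19) and 1 held TGTGTG (Pcdh15), while 66.0% and 17.7% of 27025 windows of the same length did. The GC content was 64.8% for Pcdh17, 63.6% for Pcdh9 and 51.2% for Pcdh8, against a median of 52.0% over all windows (quartiles 44.8% and 60.8%). The other 6 of the 9 windows met no peak in any list. Control TDP-43 replicate 2 and the siMyolinc TDP-43 list had no peak in the Pcdh17 window. A siMyolinc MyoD peak of 12 tags covered 52 bases at the start-proximal end of the Pcdh9 window.

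Pcdh1 and Pcdh17 had the most exon peaks of the single genes, 11 each over all lists. Pcdh1, expressed in epithelia and endothelium and lying near the clusters on the same chromosome, had exon peaks in all 3 TDP-43 controls. A position in its exon 2 had 27, 5 and 5 tags there and 15 in control Myogenin, and the 27 tags were the best single-gene peak of replicate 1 (rank 80 of 29703). Promoter peaks were listed for Pcdh1 in replicate 1 (12 and 16 tags) and replicate 2 (5 tags). In the siMyolinc TDP-43 list Pcdh1 had 2 peaks, both intergenic. Pcdh12, an endothelial protocadherin, also lies near the clusters on that chromosome. It had an exon 4 peak of 12, 5 and 8 tags in the 3 controls and no peak in siMyolinc TDP-43.

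Pcdh10 had first-exon peaks in control TDP-43 replicates 1 and 2 (12 and 10 tags), in siMyolinc TDP-43 (12 tags), and in control and siMyolinc Pol II S2P (8 and 15 tags), between 1816 and 3268 bp from its start. A Pcdh10 peak was the best single-gene peak of siMyolinc TDP-43 (rank 555 of 24964) and, tied with a Pcdh11x peak of 10 tags, of control replicate 2 (rank 527 of 10571). In replicate 3 that place went to an intron peak of Pcdh11x (10 tags) and in control Pol II S2P to an exon peak of Pcdh17 (11 tags). The other 5 lists had an intergenic best single-gene peak, named for Pcdh1, Pcdh11x, Pcdh17 or Pcdh19. By gene, 6 of 12 single genes had a TDP-43 exon peak in at least 1 control list and 2 of 12, Pcdh1 and Pcdh12, in all 3, where 21.8% and 3.69% of all genes did.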

How the data were processed

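ChIP-seq peak lists of 10 of the 14 samples were used, while 4 input and IgG samples carry no list here. Per the labels and the submitters' processing notes, the authors called peaks against IgG and annotated them with HOMER on mm10. The aligner was not given in the sources used here, nor were caller settings or HOMER's version. A peak has, per the file headers, a score, the authors' own value, a focus ratio (a deposited fraction, not used further), a class, a nearest gene and its distance in bp.

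Within each list the deposited scores were whole multiples of 1 step (tolerance 0.05, highest 1% set aside) in 100% of cases. A score divided by its step was read as tags. Depth assumes scaling to 10000000 tags, HOMER's default, which no header states. On simulated scores of the 10 lists the step was recovered within 0.0142%.

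Members were found by gene name and joined to the RefSeq GRCm38.p6 gene table (68 of 70 symbols). Peaks per 10000 and class shares were computed per list. Wilson intervals (95%), Poisson intervals and the limit of 3 counts include counting error alone, as reads copied by PCR are not independent. Tests were exact permutation tests over libraries, 6 in all, with Benjamini-Hochberg adjustment. Positions were joined at 1 bp.

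Genes named were the 3 of each family with a peak in most lists, clustered genes with exon or promoter peaks in at least 2 TDP-43 controls, the best peak per list and positions met by 4 or more lists. Other genes outside that rule were chosen after their values were seen. Members and lists were chosen with earlier results of these data known. Python 3.11.15, pandas 2.3.3, numpy 2.4.6, scipy 1.17.1 and matplotlib 3.10.9 were used.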

Additional observations from a re-analysis of the deposited data

Results flagged for a closer look

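Under the same contrast, siMyolinc minus control, the exon share of clustered protocadherin peaks moved in opposite directions between antibodies. It was 23.6 percentage points for MyoD and 45.7 for Myogenin. The Pol II S2P value was -34.8 percentage points. The exon share of all peaks in the same lists moved the same ways. From control to siMyolinc it went from 1.85% to 3.68% for MyoD and from 1.84% to 6.24% for Myogenin. For Pol II S2P it went from 21.4% to 3.76%, and the part of this list-wide shift was not tested. Each clustered value rests on 1 library per condition, and the difference between antibodies was not tested. The control Pol II S2P list had 10716 peaks and the siMyolinc list 116064, and the siMyolinc MyoD and Myogenin lists have a median peak width of 75 bp. With lists of equal length the values were 50.0 (MyoD), 71.4 (Myogenin) and -11.5 (with Pol II S2P), on 1 to 7 clustered peaks per list apart from 37 in control Pol II S2P. The part of peak width was not tested.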

How the results depend on the processing

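The 13 results were recomputed under 74 alternative values, of which 62 were counted as unchanged. For the TDP-43 differences this asked for the same direction only, whatever the size. For the other antibodies it asked for a value within the main interval, and for shared positions for a similar count. For the clustered minus single difference it asked for the same direction and side of the threshold. No paired analysis was possible because the groups compared share fewer than 2 replicate numbers. The exon share of clustered TDP-43 peaks, siMyolinc minus control, was -1.46 percentage points and changed sign with lists of equal length (2.72), with peaks within 10 kb of the named start (4.49) and without repeat peaks (5.08). The exon share of single TDP-43 peaks, -8.86, changed sign within 10 kb of the start (12.8), where the siMyolinc list has few peaks. The Pol II S2P difference in clustered peaks per 10000 went from -40.2 (control 42.9, siMyolinc 2.76) to -59.2 without repeat peaks. Per 10000 exon peaks it was -134 (170 and 36.7), on a scale whose differences do not compare with those per 10000 of all peaks. The Myogenin difference was 32.6 per 10000 exon peaks (37.9 and 70.5) and 3.11 per 10000 of all peaks (3.74 and 6.84). With lists of equal length the MyoD difference was 3.68 in place of 0.43, and the exon share differences were 50.0 (MyoD), 71.4 (Myogenin) and -11.5 (with Pol II S2P), on 1 to 7 clustered peaks per list (37 in control Pol II S2P). Clustered peaks of TDP-43 control replicate 1 met by both others were 22 at 1 bp and 13 at 50% overlap. Without each TDP-43 control replicate in turn, the differences ranged from -36.9 to -26.5 (clustered peaks per 10000), -4.28 to -0.00555 (exon share), -7.99 to -4.54 (promoter share), -12.3 to -8.03 (single peaks per 10000) and -9.72 to -7.25 (single exon share), and the clustered minus single difference over the lists from 54.4 to 55.4. That difference was 56.5, with an exact permutation p of 0.00781, without the siMyolinc MyoD and Myogenin lists, an alternative chosen after seeing the data, as was the exon peak denominator. At a median of 6 to 8 tags per peak in the 4 shallow lists, the absence of a peak is not the absence of binding.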
